A study of Mus musculus with 12 samples.

Results

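The NF-κB transcription factor genes, the inhibitors that restrain them and 2 ubiquitin regulators were followed through activation of CD8 T cells with and without Ezh2. The members are 10 genes, taken from the tables by symbol out of 25655 genes listed. They are the 5 subunit genes Nfkb1, Nfkb2, Rel, Rela and Relb, the 3 IκB inhibitor genes Nfkbia, Nfkbib and Nfkbie, and the 2 ubiquitin regulator genes Tnfaip3 and Birc3. All 10 passed the expression filter and were tested.

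The cells were naive (CD44 low, CD62L high) CD8 T cells from spleens of female C57BL/6 mice, labelled WT or Ezh2 KO. The Ezh2 protein is the methyltransferase of a Polycomb complex, which marks histone H3 at a lysine tied to gene silencing. Every group was activated on plate-bound antibody to TCR-β (3 µg/ml) with antibody to CD28 (1 µg/ml) and IL-2 (10 ng/ml) for 2 days, then grown on in IL-2 without further antibody. The 4 groups were WT and KO at day 3 and at day 5, with 3 libraries each. The titles give day 5, while the culture protocol states a longer second phase, so "day 5" is the titles' word. The labels name neither a Cre nor a promoter behind the deletion, and leave it unsaid if the 3 libraries of a group stem from different mice. A p-value here therefore speaks only to the spread among libraries, which may be technical.

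NF-κB factors are dimers of Rel-family proteins that wait in the cytoplasm bound to IκB proteins. Signals from the T cell receptor and CD28 pass through a scaffold complex that holds BCL10 and MALT1 to the IκB kinase, which marks IκB for destruction and frees the dimer to enter the nucleus. Many of the genes it then switches on are its own brakes, among them Nfkbia and Tnfaip3. Birc3 is a target too, and the messages of such targets are commonly read as a trace of pathway output. A slower non-canonical branch processes the Nfkb2 product and works mainly through RelB.

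Values are in CPM, meaning reads assigned to a gene out of every 1000000 in the library, and come from tags near the 3′ ends of transcripts. Depth ran from 1545391 to 2011247 reads, which makes 1 read equal to 0.497 to 0.647 CPM, and 11257 to 11973 genes had a read. Ezh2 itself averaged 380 ± 26.7 CPM in WT and 341 ± 33.8 in KO at day 3 (SD, n = 3, log2 difference −0.16 ± 0.15 SE, limma adjusted p = 0.499). At day 5 it averaged 314 ± 6.72 CPM in WT and 201 ± 71.2 in KO (−0.70 ± 0.15, limma adjusted p = 5.83e-04). The WT day 5 libraries held 306, 319 and 316 CPM of Ezh2 and the KO day 5 libraries 159, 283 and 161. Replicate 2 of KO day 5 thus lay nearer the WT libraries than its partners did. A 3′ tag can lie outside the deleted part, so these values do not check the genotype. KO day 5 replicate 2 stood apart. Its chi-square over degrees of freedom was 5.38 and 5.21 with its partners, where other replicate pairs lay between 1.34 and 2.45. The 9 CD8 T cell markers summed to 2381 to 2485 CPM in WT day 3, 1866 to 2156 in KO day 3, 2444 to 2479 in WT day 5 and 3039 to 3540 in KO day 5. The B cell genes Ms4a1, Cd22 and Blk had no read in any group. The 18 myeloid and dendritic markers summed to 100.1 to 121 CPM in WT and 191 to 223 in KO at day 3, and to 140.2 to 152 in WT and 329 to 429 in KO at day 5. Of the 9 of these that were tested, 5 were higher in KO at day 3 and 8 at day 5, and none was lower. Over all genes tested, 11.2% were higher and 7.23% lower at day 3, and 16.5% higher and 22.9% lower at day 5. At day 5, H2-Aa averaged 0.195 CPM in WT and 49.98 in KO, Cd74 0.188 and 55.2, H2-Eb1 0.377 and 26.6, and Fcer1g 0.764 and 21.4. Cst3 and H2-Ab1 averaged 77.4 and 61.8 CPM in WT and 115 and 105 in KO. Also at day 5, Cd68 averaged 3.78 CPM in WT and 12.2 in KO, and Itgax 0.195 and 1.68. Mpo, S100a9 and Siglech had no read in any group, and Lyz2 had 1 read in all. Adgre1 and Cd14 had reads only in KO day 5, Csf1r only in the KO groups, and Flt3 and S100a8 only in KO day 3. The 7 NK cell markers summed to 541 to 555 CPM in WT and 2258 to 3264 in KO at day 3, and to 976 to 1095 and 4236 to 4680 at day 5. Most of that was Gzma and Nkg7, which effector CD8 T cells also express, while Ncr1, Klra4 and Klra8 had no read in any group. Klrb1c averaged 0.761 CPM in WT and 13.3 in KO at day 5. In bulk samples a change in the share of a cell type and a change in RNA per cell cannot be told apart.

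The regulatory sequence next to the start of Nfkbia is shown because Nfkbia is the member whose level moved with the smallest p-value. RefSeq windows (GRCm38.p6, 250 bases before to 50 after a start) were available for 8 of the 10 members, in 11 windows. They were searched on both strands for the classical κB motif GGGANNNTCC, which reads GGANNNTCCC from the other strand. Nfkbia and Nfkb2 held a match, against 5.21% of 27025 genes in the table. The 250 bases before the Nfkbia start (chr12:55492648-55492897, minus strand) are printed 5′ to 3′ in the direction of the gene, with the match in capitals.
Nfkbia: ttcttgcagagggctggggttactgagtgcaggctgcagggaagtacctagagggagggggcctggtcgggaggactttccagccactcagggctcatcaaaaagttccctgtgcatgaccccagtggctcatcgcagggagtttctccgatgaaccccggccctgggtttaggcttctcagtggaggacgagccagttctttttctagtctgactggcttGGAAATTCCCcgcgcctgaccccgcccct
The match begins 29 bases before the start and reads GGGAATTTCC on the other strand. A looser form, GGGNNNNTCC, added after the data were seen and including every classical match, was found in 6 of the 8 members with a window and in 21.3% of genes. The matches nearest those of Nfkbia in kind are shown with 10 flanking bases on each side, in the direction of each gene, to let the members be compared.
Nfkb2: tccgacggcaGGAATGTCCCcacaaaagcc
Nfkb2: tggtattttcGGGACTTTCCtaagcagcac
Rel: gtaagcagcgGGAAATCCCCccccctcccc
Tnfaip3: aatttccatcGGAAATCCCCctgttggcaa
Nfkbie: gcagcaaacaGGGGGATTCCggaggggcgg
The pair from Nfkb2 (chr19:46305449-46305478 and chr19:46305695-46305724, plus strand) are classical matches. They begin 236 bases before an internal start and at base 11 counted from it. Those of Rel (chr11:23771041-23771070, minus strand) and Tnfaip3 (chr10:19015403-19015432, minus strand) both read GGGGATTTCC on the other strand, and that of Nfkbie (chr17:45555584-45555613, plus strand) reads GGGGGATTCC. Nfkbib and Birc3 had no match of either form. Nfkb2 held another classical match, not shown, which begins 110 bases before a further internal start and reads GGGAGGGTCC on the other strand. The window at its most upstream start in the table held 0 classical and 2 looser matches. A match describes these letters and is not a measured binding site.

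**Figure D1:**
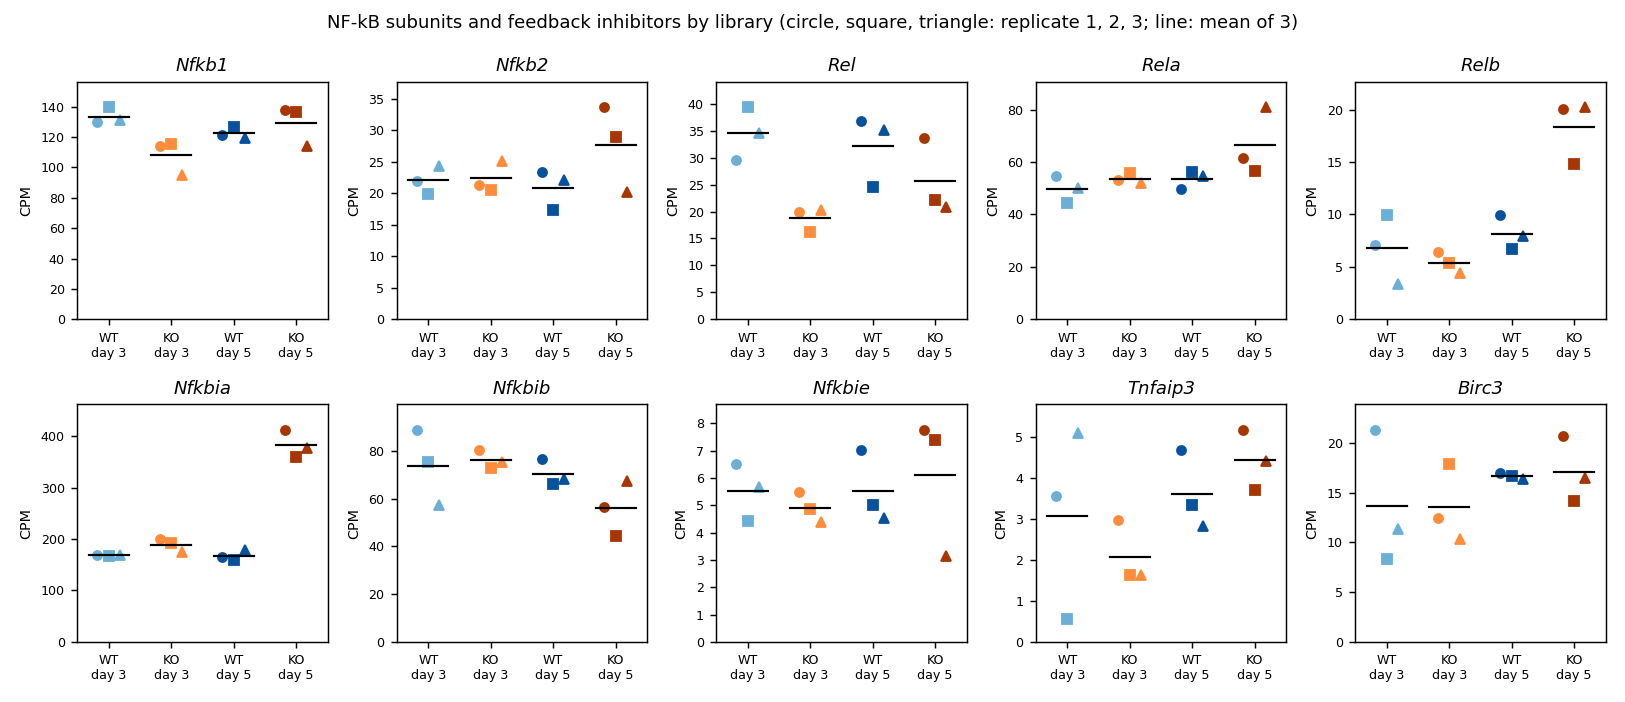
CPM of each of the 10 members (vertical axes from 0) in the 12 libraries, by group on the horizontal axis, with 1 mark per library (circle, square and triangle for replicates 1, 2 and 3) and a line at each mean of 3. Nfkbia and Relb stand highest in all 3 KO day 5 libraries, and Rel lowest in KO day 3.

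The first comparison asked how KO cells differed from WT at day 3. Of the 10 members 2 fell and none rose, Rel and Nfkb1, where 18.4% of the 11417 genes tested were called, 11.2% higher and 7.23% lower. The count is thus close to the background share. Libraries of the genotypes did not overlap for 3 members, Rel, Nfkb1 and Nfkbia, against 38.1% of all genes. The median log2 difference was −0.06 over the members and −0.01 over all genes tested.

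Rel (ENSMUSG00000020275, chr11:23736847-23770970, minus strand, GRCm38) encodes c-Rel, the subunit most tied to activated lymphocytes and to cytokine genes such as Il2. Its WT day 3 libraries held 29.6, 39.3 and 34.6 CPM and its KO day 3 libraries 19.9, 16.2 and 20.2 CPM. Every KO library lay below every WT library. The mean was 1.84-fold lower in KO, with a log2 difference of −0.84 ± 0.21 SE (limma adjusted p = 0.00632), and it was called in all 22 alternatives, with adjusted p from 0.00238 to 0.0395. Day 5 values were 36.8, 24.5 and 35.0 CPM for WT and 33.6, 22.2 and 20.8 CPM for KO. The groups overlapped there, the difference was not called (−0.33, 95% interval −0.76 to 0.10, limma adjusted p = 0.222), and the difference between the days' effects was not called either (0.51 ± 0.29, adjusted p = 0.286). From highest to lowest the group means were WT day 3 at 34.5, WT day 5 at 32.1, KO day 5 at 25.6 and KO day 3 at 18.8 CPM. Among comparisons made, only WT day 3 against KO day 3 was called.

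Nfkb1 (ENSMUSG00000028163, chr3:135584655-135691547, minus strand) encodes p105, the precursor of p50, which is both a DNA-binding subunit and, as p105, an inhibitor. WT day 3 libraries held 129.7, 139.6 and 131 CPM and KO day 3 libraries 114, 115 and 95.2 CPM. The groups did not overlap, and the mean was 1.23-fold lower in KO (log2 difference −0.30 ± 0.10 SE, limma adjusted p = 0.0449). The call was unstable: it held in 9 of 22 alternatives, was lost when any 1 WT library or KO day 3 library was left out, with adjusted p reaching 0.213, and edgeR on the reads gave 0.0648. At day 5 WT held 122, 127 and 119 CPM and KO 138, 136 and 114 CPM, overlapping ranges with no call (0.08, 95% interval −0.14 to 0.29, limma adjusted p = 0.601).

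The remaining subunits were not called at day 3. Rela (ENSMUSG00000024927, chr19:5637483-5648130, plus strand), encoding p65, the main activating subunit, stood at 49.6 ± 5.10 CPM in WT and 53.6 ± 1.90 in KO (SD, n = 3, log2 interval −0.17 to 0.40). Nfkb2 (ENSMUSG00000025225, chr19:46304320-46312385, plus strand), encoding p100, precursor of p52, stood at 22.1 ± 2.23 and 22.4 ± 2.46 CPM (interval −0.41 to 0.44). Its 3′ end overlaps Psd on the other strand, which had 0 CPM. Relb stood at 6.83 ± 3.29 and 5.42 ± 1.04 CPM (interval −0.87 to 0.46), on 36 and 31 reads over each group. The Relb interval includes a difference as large as that of Rel.

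Among the inhibitors at day 3, Nfkbia (ENSMUSG00000021025, chr12:55489410-55492647, minus strand), which encodes IκBα, the classical feedback inhibitor, held 169.4, 167 and 169.0 CPM in WT and 199.9, 192.5 and 175 CPM in KO. The KO libraries all lay above the WT libraries, but the log2 difference of 0.16 ± 0.09 SE was not called (limma adjusted p = 0.198). Nfkbib (ENSMUSG00000030595, chr7:28758251-28767512, minus strand), encoding IκBβ, held 88.8, 75.3 and 57.3 CPM in WT and 80.5, 73.0 and 75.5 in KO (interval −0.25 to 0.39). Nfkbie (ENSMUSG00000023947, chr17:45555703-45563169, plus strand), encoding IκBε, held 6.52, 4.43 and 5.67 CPM in WT and 5.47, 4.87 and 4.38 in KO (interval −0.84 to 0.56). Both genes overlapped between the genotypes and neither was called. Tnfaip3 (ENSMUSG00000019850, chr10:19000910-19015657, minus strand), encoding the ubiquitin-editing enzyme A20, held 3.55, 0.554 and 5.10 CPM in WT and 2.98, 1.62 and 1.64 in KO, from 1 to 9 reads a library. Birc3 (ENSMUSG00000032000, chr9:7848699-7873186, minus strand), encoding the ubiquitin ligase cIAP2, held 21.3, 8.31 and 11.3 CPM in WT and 12.4, 17.8 and 10.4 in KO. Neither was called, and at these depths the intervals of Tnfaip3 (−1.11 to 0.68) and Birc3 (−0.53 to 0.65) reach over 0.5 in both directions.

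The same comparison at day 5 showed a different pair of genes. Of the 10 members 2 rose in KO, Nfkbia and Relb, and none fell, where 39.4% of all genes tested were called, 16.5% higher and 22.9% lower. The members' share was below that background. Libraries did not overlap for 3 members, Nfkbia, Relb and Rela, against 47.7% of all genes. The median log2 difference was 0.16 over the members and −0.08 over all genes. The genotype comparisons at the 2 days share no library with each other, and each shares libraries with the comparisons over time.

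Nfkbia held 164, 159 and 178 CPM in WT at day 5, where KO held 412, 359 and 377 CPM. The lowest KO library was far above the highest WT library. The mean rose 2.29-fold, from 167 ± 9.64 to 383 ± 27.2 CPM (SD, n = 3), with a log2 difference of 1.19 ± 0.09 SE (limma adjusted p = 4.75e-10). It was called in all 22 alternatives and stood at 1.23 without KO day 5 replicate 2. The summed myeloid and dendritic markers and the summed NK cell markers were higher in the same libraries, as given above, and their part in this result was not tested.

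Relb (ENSMUSG00000002983, chr7:19606217-19629438, minus strand), the subunit of the non-canonical branch and itself a target of NF-κB, held 9.93, 6.69 and 7.91 CPM in WT day 5 and 20.1, 14.8 and 20.2 CPM in KO day 5. All KO libraries lay above all WT libraries. The mean rose 2.25-fold on 43 and 87 reads over each group (log2 difference 1.08 ± 0.32 SE, limma adjusted p = 0.0102). The call held in all 22 alternatives, with adjusted p up to 0.0456, and the difference was 1.22 without KO day 5 replicate 2. The summed myeloid and dendritic markers and NK cell markers were higher in these KO libraries too, and their part in the Relb result was not tested.

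Rela held 49.7, 56.3 and 54.8 CPM in WT day 5 and 61.5, 56.7 and 80.9 CPM in KO day 5. The groups did not overlap, by a margin smaller than 1 read is worth, and the difference of 0.29 ± 0.14 SE was not called (limma adjusted p = 0.106). It was called with median-of-ratios scaling (0.0265), quantile normalisation (0.0297), edgeR (0.0307) and without KO day 5 replicate 2 (0.0305), so Rela sits at the threshold. Nfkb2 held 23.4, 17.3 and 22.0 CPM in WT and 33.6, 29.0 and 20.2 in KO, with overlapping groups (0.37, interval −0.06 to 0.79, adjusted p = 0.163). It was called when KO day 5 replicate 3 was left out (0.57, adjusted p = 0.0382).

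Nfkbib held 76.5, 66.3 and 68.4 CPM in WT day 5 and 56.3, 44.4 and 67.6 in KO day 5, in the opposite direction to Nfkbia (−0.34 ± 0.15 SE, limma adjusted p = 0.0867). It too was called when KO day 5 replicate 3 was left out (−0.48, adjusted p = 0.0227), which brings the members called at day 5 from 2 to 4. Its 5′ side overlaps Sirt2 on the other strand, which averaged 37.5 CPM, and whether counting used strand is unknown here. Nfkbie stood at 5.52 ± 1.32 and 6.11 ± 2.56 CPM (interval −0.63 to 0.77), Tnfaip3 at 3.61 ± 0.954 and 4.43 ± 0.738 (−0.65 to 1.14) and Birc3 at 16.7 ± 0.281 and 17.1 ± 3.31 (−0.57 to 0.61). None of these was called.

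**Figure D2:**
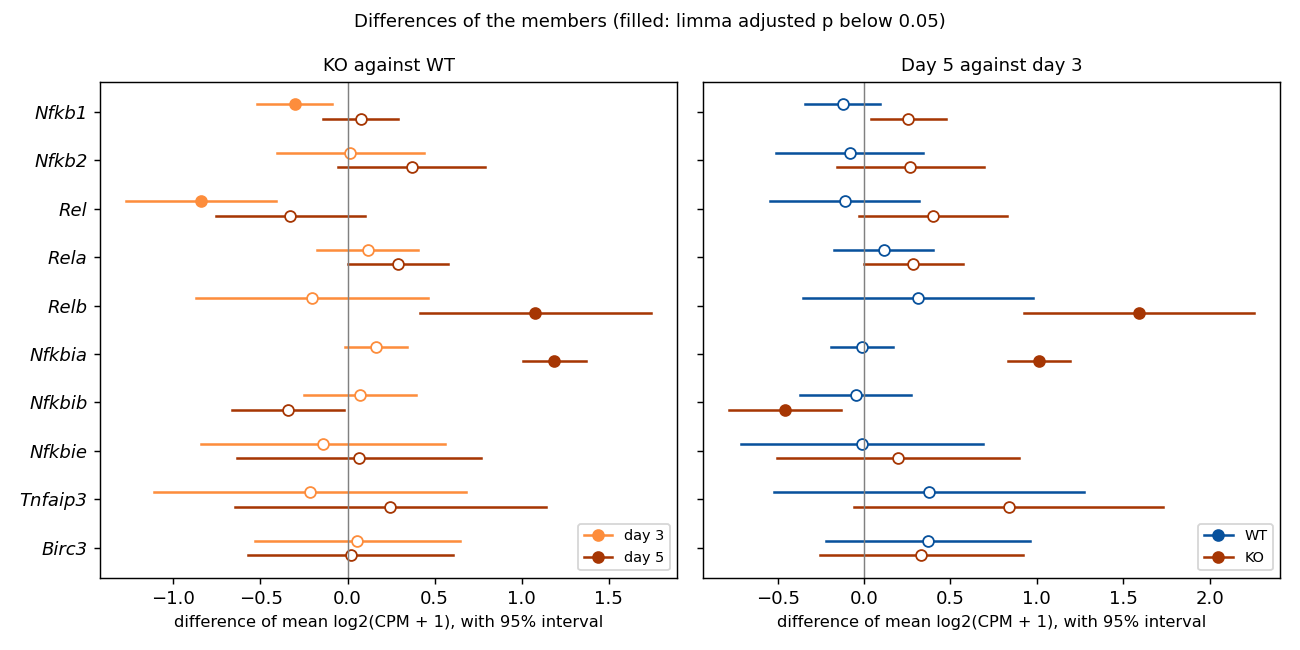
Difference of mean log2(CPM + 1) for each member (horizontal axis, log2) for KO against WT at each day and day 5 against day 3 in each genotype, with unadjusted 95% intervals. Filled marks have limma adjusted p below 0.05. Nfkbia and Relb stand to the right in KO against WT at day 5 and in KO over time, Rel and Nfkb1 to the left at day 3, and the WT time comparison holds no filled mark.

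Time was compared within each genotype. From day 3 to day 5 in WT none of the 10 members passed limma (0 at an unadjusted p below 0.05, and 0 with edgeR), against 10.9% of all genes (7.17% higher and 3.77% lower). Only the Nfkb1 libraries did not overlap, against 31.4% of all genes. Nfkbia averaged 168 ± 1.44 and then 167 ± 9.64 CPM, with a 95% interval of −0.19 to 0.17 on the log2 scale. In KO, 3 members were called, 2 higher and 1 lower, against 35.1% of all genes (15.4% higher and 19.7% lower), and libraries did not overlap for 6 members against 43.4%. The 6 were Rel, Rela, Relb, Nfkbia, Nfkbib and Tnfaip3. The KO libraries enter this comparison and the genotype comparisons alike, so the results share samples.

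In KO, Relb rose 3.39-fold, from 6.46, 5.41 and 4.38 CPM at day 3 to the day 5 values above (log2 difference 1.59 ± 0.32 SE, limma adjusted p = 4.64e-04). Nfkbia rose 2.02-fold (1.01 ± 0.09, adjusted p = 8.32e-09). Nfkbib fell, from 80.5, 73.0 and 75.5 CPM to 56.3, 44.4 and 67.6 CPM (−0.46 ± 0.15, adjusted p = 0.0250). Without KO day 5 replicate 2, the lowest of its libraries, the Nfkbib difference was −0.30 and no longer called (adjusted p = 0.112). The call also ended when replicate 1 (−0.42) or replicate 3 (−0.46) of KO day 3 was left out. Moderation without trend ended it too (limma adjusted p = 0.0832), so it held in 18 of 22 alternatives. Not called were Tnfaip3 (0.84, interval −0.06 to 1.73, on 12 and 21 reads), Rel (0.40, −0.03 to 0.83) and Rela (0.29, −0.0024 to 0.58). With 1 library left out, the adjusted p of Rela reached 0.0348 at its lowest by limma. Nfkb2 (0.27), Nfkbie (0.20) and Birc3 (0.33) overlapped between the days and were not called. Nfkb1 was higher by 0.26 at day 5 without passing (adjusted p = 0.0599), and it passed with the replicate number as a block (0.0464), median-of-ratios scaling (0.0213), quantile normalisation (0.0251) and edgeR (0.0329), and when KO day 5 replicate 3 was left out (0.0193).

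The genotype effect differed between the days for 1 member, Nfkbia, against 12.9% of all genes (4.01% higher and 8.85% lower). Its KO minus WT difference was larger at day 5 by 1.02 ± 0.12 on the log2 scale (limma adjusted p = 6.65e-06, called in 21 of 21 alternatives). For Relb the change between days was 1.28 ± 0.45 and missed the threshold (adjusted p = 0.0675). Relb passed with a pseudocount of 5 (0.0320), quantile normalisation (0.0292) and edgeR (0.0335), and when WT day 3 replicate 3 (1.65) or KO day 5 replicate 2 (1.42) was left out. Of the others, Nfkb1 came nearest, at 0.38 ± 0.15 (adjusted p = 0.0962), and passed with median-of-ratios scaling (0.0344) and quantile normalisation (0.0397), and when KO day 5 replicate 3 was left out (0.0389). From highest to lowest the Nfkbia means were KO day 5 at 383, KO day 3 at 189, WT day 3 at 168 and WT day 5 at 167 CPM. No difference among the last 3 was called in the comparisons made, and KO day 5 differed from both groups it was compared with.

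Genes whose pattern over the 12 libraries was most like that of the 3 members with the widest range of group means were found by the root mean square difference of centred log2 values, among genes averaging at least 20 CPM. For Relb they were Rgs3 (0.29), Sidt2 (0.30) and Ripor2 (0.34). For Nfkbia they were Map1lc3b (0.13), Pdlim2 (0.15) and Cln3 (0.15). For Rel they were Cd27 (0.20), Gtf2i (0.20) and Pml (0.20). Pdlim2, a ligase that directs p65 for degradation, averaged 76.7, 105, 84.5 and 177 CPM in WT day 3, KO day 3, WT day 5 and KO day 5. Cd27, a receptor of the TNF receptor family, averaged 82.3, 40.5, 60.9 and 51.7 CPM in the same order. Map1lc3b, nearest to Nfkbia, averaged 56.7, 60.1, 60.8 and 114 CPM in that order. Pdlim2 was highest in KO day 5, as Nfkbia was, and Cd27 was lowest in KO day 3, as Rel was. Such a match comes with choosing genes by likeness over these libraries, so it is no separate result.

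**Figure D3:**
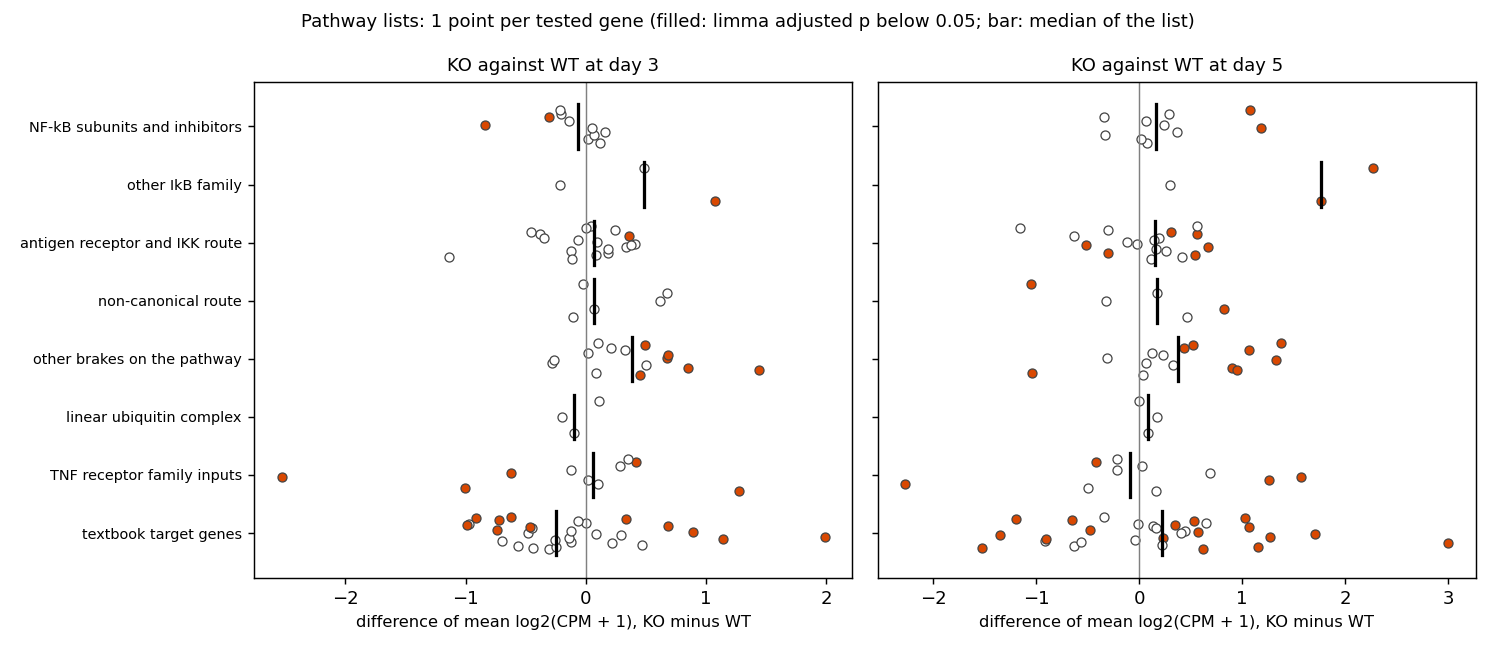
KO minus WT difference of mean log2(CPM + 1) (horizontal axis) for every tested gene of each pathway list, at day 3 and day 5, with filled marks for limma adjusted p below 0.05 and a bar at each list's median. The other IκB family and the other brakes have medians to the right of 0 at both days. So do the antigen receptor route (0.07 and 0.16) and the non-canonical route (0.07 and 0.17), by less. The target genes lie on both sides.

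The rest of the pathway was described by lists drawn up with earlier results of these data known. The nuclear and atypical IκB genes Bcl3, Nfkbid and Nfkbiz formed the first. Bcl3, encoding a nuclear partner of p50 and p52, held 33.8, 31.6 and 23.3 CPM in WT day 3 and 52.7, 67.6 and 68.4 in KO day 3, with no overlap (1.07 ± 0.19 SE, limma adjusted p = 3.84e-04). At day 5 it held 29.2, 37.3 and 24.3 CPM in WT and 108.7, 77.7 and 134 in KO (1.77 ± 0.19, adjusted p = 2.04e-07). Nfkbiz, encoding IκBζ, held 2.92, 5.02 and 3.39 CPM in WT day 5 and 23.9, 22.2 and 19.0 in KO day 5 (2.27 ± 0.28, adjusted p = 1.08e-06). Nfkbid was not called at either day. From day 3 to day 5 all 3 rose in KO, where 15.4% of all genes rose. Nfkbiz went from 12.1 to 21.7 CPM, a call lost in 4 of 22 alternatives, and Nfkbid from 5.94 to 13.1 CPM. In WT over the same days Nfkbiz fell from 8.18 to 3.78 CPM (−0.96 ± 0.28, adjusted p = 0.0277), a call lost in 7 of 22 alternatives. Without KO day 5 replicate 2, 2 of the 3 rose. The list's median difference was 0.49 at day 3 and 1.77 at day 5, beside −0.01 and −0.08 over all genes.

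Several other brakes on the pathway rose in KO. Of 14 tested, 6 rose and none fell at day 3, and 7 rose and 1 fell at day 5, with medians of 0.39 and 0.38. Over all genes tested, 11.2% rose and 7.23% fell at day 3, and 16.5% rose and 22.9% fell at day 5. Tax1bp1, an adaptor for A20, rose from 218 to 393 CPM at day 3 (0.85 ± 0.09 SE, limma adjusted p = 5.27e-07). Traf1, a signalling adaptor and a target of NF-κB, rose at both days, from 44.0 ± 4.45 to 70.8 ± 5.03 CPM at day 3 and from 52.2 ± 8.93 to 136 ± 3.73 at day 5 (SD, n = 3). Pdlim2 rose at day 5 from 84.5 ± 8.37 to 177 ± 8.12 CPM, and N4bp1, which restrains NF-κB signalling, from 59.0 to 111 CPM. Optn, encoding a ubiquitin-binding adaptor, rose at day 3 from 2.09 to 7.43 CPM. The member that fell was Commd1, whose product promotes the removal of p65 from chromatin (32.4 to 15.6 CPM at day 5, −1.04 ± 0.20, adjusted p = 2.64e-04). In KO from day 3 to day 5, 5 rose and 1 fell, where 15.4% of all genes rose and 19.7% fell. In WT 1 rose, Tax1bp1, and none fell, where 7.17% of all genes rose and 3.77% fell.

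**Figure D4:**
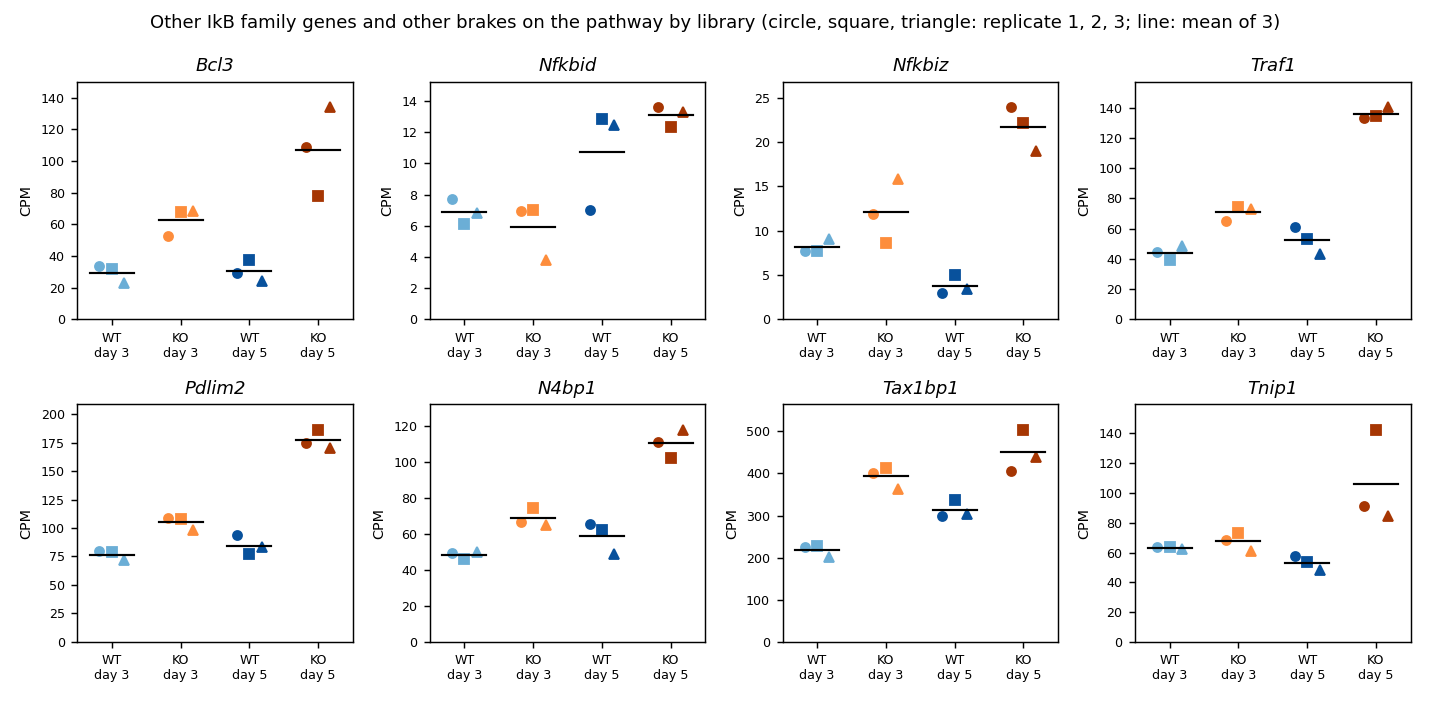
CPM (vertical axes from 0) of 3 other IκB family genes and 5 other brakes in the 12 libraries by group, with 1 mark per library (circle, square and triangle for replicates 1, 2 and 3) and a line at each mean. Nfkbiz, Traf1, Pdlim2 and N4bp1 are highest in all 3 KO day 5 libraries, and the Tnip1 mean of that group is raised by replicate 2. Nfkbid overlaps between the genotypes at both days.

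Next came the route from the antigen receptor to the IκB kinase. Of 18 genes 1 rose at day 3, against 18.4% of all genes called, namely Tab2, an adaptor of the TAK1 kinase (165 to 212 CPM, limma adjusted p = 0.00526). Without KO day 5 replicate 2, which sets part of the shared spread, 2 rose and 2 fell at day 3. At day 5, 4 rose and 2 fell, against 39.4% of all genes called. Tab2 rose from 199 to 318 CPM and the protease gene Malt1 from 43.7 to 65.6. Csnk1a1 fell from 385 to 313 CPM and Traf6 from 34.5 to 23.9, calls lost in 3 and 5 of 22 alternatives. From day 3 to day 5, 2 rose in WT (Prkcq and Tab2, the latter lost in 13 of 22) and 6 rose in KO. Over all genes tested, 7.17% rose in WT and 15.4% in KO. Csnk1a1 encodes a casein kinase, and Traf6 and Prkcq encode a ligase and a kinase upstream of the IκB kinase.

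Of 5 genes of the non-canonical route none was called at day 3 by limma (0 at an unadjusted p below 0.05, and 0 with edgeR). At day 5, 1 rose and 1 fell. The shares over all genes tested were 18.4% called at day 3 and 39.4% at day 5. Map3k14, encoding the kinase NIK, stood at 16.2 CPM in KO and 9.23 in WT (0.83 ± 0.31 SE, limma adjusted p = 0.0370, lost in 6 of 22 alternatives). Traf5 fell from 6.81 to 2.75 CPM (−1.05 ± 0.33, adjusted p = 0.0139), a call lost when replicate 2 of KO day 5 (0.0611) or replicate 3 of WT day 5 (0.0890) was left out. Of the 3 genes of the linear ubiquitin complex, 0 passed limma or edgeR in the comparisons made. At an unadjusted p below 0.05 the count was 2 in KO over time, Rnf31 and Sharpin, and 0 elsewhere.

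Receptors of the TNF family that feed the pathway went both ways. Of 10 tested at day 3, 2 rose and 3 fell, against 18.4% of all genes called. At day 5, 2 rose and 2 fell, a share close to the 39.4% of all genes. Tnfrsf4, encoding OX40, fell from 91.8 to 15.5 CPM at day 3 (−2.53 ± 0.31 SE, limma adjusted p = 3.30e-06) and from 24.6 to 4.81 at day 5. Tnfrsf8, encoding CD30, rose from 57.1 to 138 CPM at day 3 and from 32.4 to 102 at day 5. Tnfrsf18, encoding GITR, fell from 229 to 148 CPM at day 3, and Cd27 fell from 82.3 to 40.5. In WT over time 3 fell, against 3.77% of all genes tested. Without KO day 5 replicate 2 the counts in WT over time were 1 higher and 4 lower.

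Textbook target genes of NF-κB did not move as a block. Of 29 tested at day 3, 5 rose and 6 fell (median −0.25), and at day 5, 11 rose and 6 fell (median 0.22). Of all genes tested, 18.4% were called at day 3 and 39.4% at day 5. Genes that rose at both days included the cell cycle gene Ccnd2 (1922 to 3096 CPM at day 3 and 1927 to 4037 at day 5), the adhesion receptor gene Cd44 (132 to 246 and 167 to 343) and the chemokine gene Ccl4 (1.92 to 10.5 and 2.29 to 24.8). The cytokine gene Lta fell at both days, from 434 to 234 CPM and from 242 to 83.3. Ltb, encoding lymphotoxin β, fell at day 3 and rose at day 5. At day 5 it held 81.2, 105 and 89.3 CPM in WT and 166.9, 122.7 and 123.8 in KO, after means of 161 and 81.5 CPM at day 3. The chemokine receptor gene Ccr7 fell at day 5 from 98.1 to 38.3 CPM, and Irf4, a transcription factor gene of activated lymphocytes, fell at day 3 from 132 to 78.5. In WT over time 1 rose and 7 fell, among them Il2ra (1046 to 681 CPM), and in KO 6 rose and 6 fell. Over all genes tested, 7.17% rose and 3.77% fell in WT, and 15.4% rose and 19.7% fell in KO.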

How the data were processed

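The libraries were QuantSeq 3′ mRNA libraries from 500 ng of total RNA extracted with an RNeasy kit, per the labels' protocols. The authors deposited 1 table a library with values named TPM. Each library adds up to 1000000, and 100% of its values come out as whole reads within 0.001 read, so the deposited values are used as CPM. The planned design named TPM values, or CPM if the values proved to be that, and its test was kept. GRCm39 and mm10 both appear, with no role, in the submitters' processing notes. For the aligner, counter, annotation and strand setting, nothing is given in the sources used here. Coordinates of genes come from GENCODE M21 (GRCm38), matched by identifier for 25600 of 25655 genes, and sequences from RefSeq (GRCm38.p6).

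Genes with at least 1 CPM in at least 3 libraries were tested (11417, with 14238 not tested). log2(CPM + 1) was computed from the deposited values and modelled by group means over all 12 libraries with limma 3.58.1 (R 4.3.3), with a trend in the moderation and 21.1 degrees of freedom. The pseudocount understates the change of low genes. For each of 5 comparisons, two-sided p-values were adjusted (Benjamini-Hochberg, all tested genes) and called at 0.05. Fold values are ratios of mean CPM. The fit was tested on simulated data. Samples sharing a replicate number did not deviate together (correlations from −0.0138 to 0.0422, 0 of 18 pairs over 0.1). Counting noise can hide a weak shared deviation, so this cannot exclude that the numbers pair samples.

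The alternatives tried were a pseudocount of 0.1 or 5, a filter at 5 CPM or none, median-of-ratios and quantile scaling, the replicate block, moderation without trend, only the libraries compared, edgeR 4.0.16 (quasi-likelihood, TMM) on the recovered reads, and leaving out each library. The members and lists were chosen with earlier results of these data known. The text names all members, and from each other list the 3 called genes with the smallest adjusted p in each direction of a pairwise comparison, leaving out some. Genes shown by library in the plot of other brakes, Tnip1 among them, were chosen after their values were seen. Some genes are not reported here.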

Additional observations from a re-analysis of the deposited data

Results flagged for a closer look

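The KO minus WT difference changed between day 3 and day 5 for 1 member and 12 other genes of the pathway lists, by limma's test of the difference itself. These are 13 of the 92 pathway genes tested, or 14.1%, close to the 12.9% of all genes called. Over all genes 4.01% were higher and 8.85% lower, while all of the 13 but Ccr7 and Sod2 were higher. The lists were drawn up with earlier results of these data known. Values are the day 5 minus day 3 change of the KO minus WT difference on the log2 scale. For Nfkbia it was 1.02 (limma adjusted p = 6.65e-06). Among inhibitors and brakes it was 1.78 for Nfkbiz (0.00388), 0.86 for Tnip1 (0.00955), 0.70 for Traf1 (0.0136) and 0.61 for Pdlim2 (0.00650). For the scaffold gene Malt1 it was 0.68 (0.0452), a call lost in 13 of 21 alternatives. Among receptors it was 0.79 for Cd27 (0.0168) and 0.65 for Tnfrsf18 (0.00173). Among target genes it was 1.57 for Ltb (1.19e-05), 1.96 for the chemokine gene Ccl3 (0.0498, lost in 14 of 20), 0.38 for Ccnd2 (0.0248, lost in 9 of 21), −0.73 for Ccr7 (0.0135) and −0.76 for Sod2 (0.0376, lost in 13 of 21). The calls of Tnip1 and Traf1 were each lost in 1 of 21 alternatives, and those of Cd27 and Ccr7 in 2. Tnip1 held its highest value in KO day 5 replicate 2, the library that stood apart from its partners.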

How the results depend on the processing

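The calls of Rel at day 3, of Nfkbia and Relb at day 5 and in KO over time, and of Nfkbia between days held in every alternative run. The number of members called at day 3 was 1 in place of 2 with no filter, quantile normalisation, moderation without trend and edgeR, each time through the loss of Nfkb1. For the change between days it was 2 in place of 1 with a pseudocount of 5, median-of-ratios scaling and edgeR, and 3 with quantile normalisation. Leaving out 1 library gave 1 to 2 members at day 3, 2 to 4 at day 5, 0 to 0 in WT over time, 2 to 4 in KO over time and 1 to 2 between days. With the replicate block the counts were 2, 2, 0, 4 and 1 in that order. The block added Nfkb1 in KO over time (0.0464) and changed no other member's call.

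No call reversed. Differences with no call changed sign with quantile normalisation for Nfkb2 (−0.0094) and Birc3 (−1.5e-04) at day 3 and Nfkbie at day 5 (−0.023), and between days for Birc3 with median-of-ratios scaling (0.056), quantile normalisation (0.066) and edgeR (0.092). Leaving out 1 library, signs changed at day 3 for Nfkb2 (−0.067 to 0.088), Relb (−0.57 to 0.090), Nfkbib (−0.0998 to 0.21), Tnfaip3 (−0.80 to 0.18) and Birc3 (−0.22 to 0.41). At day 5 they changed for Nfkbie (−0.12 to 0.42) and Birc3 (−0.12 to 0.14), and between days for Birc3 (−0.39 to 0.24). In WT over time they changed for Nfkb2 (−0.17 to 0.042), Rel (−0.22 to 0.065), Relb (−0.055 to 0.60), Nfkbia (−0.057 to 0.022), Nfkbib (−0.22 to 0.096), Nfkbie (−0.17 to 0.099) and Tnfaip3 (−0.21 to 0.77). The cause was not tested. The members with the fewest reads over a group were Tnfaip3 (12 to 21), Nfkbie (28 to 29) and Relb (31 to 87).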
